A study of Rattus norvegicus with 4 samples.

Results

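The cytosolic ribosomal proteins are the protein parts of the ribosomes that translate nuclear-encoded messenger RNA. Their genes were taken by symbol: every gene probe named Rpl or Rps with a number, or Rpsa, Rplp1 or Rplp2, with the S6 kinases (Rps6k) left out, with signal that the scanner software called well above background on 2 arrays or more. The choice used no difference between groups. It gave 72 genes on 108 probes, out of 24310 names on 28415 probes measured in the same tissue, and split into 41 genes of the large subunit and 31 of the small subunit. All 108 probes were well above background on all 4 arrays, and none was saturated. 

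A ribosome consists of a small subunit, which reads the messenger RNA, and a large subunit, which joins amino acids into a chain. Each subunit is built in the nucleolus from ribosomal RNA and a set of proteins needed in nearly equal numbers, so these genes are known for being expressed together and at high levels in nearly every cell type, above all in cells that grow, divide or secrete, as in the crypts of the intestine. Their messenger RNAs typically begin with a run of pyrimidines (C or T in the DNA), the 5′ terminal oligopyrimidine tract, through which mTOR signalling sets how strongly they are translated. A few of the proteins have a paralog with its own tissue pattern: Rpl3l, the paralog of Rpl3, is known as the form used in skeletal muscle and heart.

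The comparison asked what compost extract taken by mouth does to gene expression in the gut. Control rats drank tap water. For compost rats the tap water held compost extract, a heated dilution of a fermented compost, at 1% (v/v) for 12 weeks from the age of 3 weeks. All were male Wistar rats, an outbred stock, and small intestine freed of Peyer's patches was collected from individual animals. Each group had 2 rats with 1 array each (control 1 and 2, compost 1 and 2), and the 4 arrays shared a slide on which the controls took positions 1 and 2 and the compost rats positions 3 and 4, so that position and group cannot be told apart.

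A level here is the log2 of a probe's processed intensity minus the 75th percentile of its array. Probes bind with different strength, so differences between groups were taken for the same probe between arrays, and the order of genes by brightness below is an order of their probes and not of their messenger RNA. The 75th percentile intensity was 769 and 759.9 on the control arrays, 987 on compost 1 and 729 on compost 2. The enterocyte marker list held 18 genes, of which 16 were measured. None of them passed the test. All 16 had a lower mean in compost, 14 without compost 1 and 15 without control 2. Lct and Alpi were well above background on 2 arrays only. Lct read -2.99 and -4.20 in the controls against -5.89 and -6.64 in compost, and Alpi -1.87 and -4.50 against -7.16 and -7.48. The compost values of Alpi lay under the dimmest spots called well above background on those arrays. Alpi was thus kept through the controls alone, which fixed its direction, and the same may hold for Lct. The list's summed level was 2673 and 2245 in the controls against 1582 and 1992 in compost. Of 9 measured B and plasma cell markers, 8 (88.9%) had both compost arrays above both controls, where 12.7% of all names did so. The median difference over the 9 was 1.37. Ms4a1, among the 8, was well above background on 2 arrays only and read -6.86 and -6.06 against -5.56 and -2.84. Its control values lay under the dimmest spots called well above background on those arrays. Ms4a1 was thus kept through the compost arrays alone, which fixed its direction. The summed level of the 9 was 212 and 262 in the controls against 231 and 255 in compost. Sdc1 was then left out, after its values were seen, because its probe made up most of the sum. Without Sdc1 the sum was 4.37 and 6.38 against 16.3 and 9.84. Of 13 measured macrophage and dendritic cell markers, 11 had a higher mean in compost. The median difference over the 13 was 0.60, and it was 0.13 without compost 1. Their summed levels were 278 and 361 against 364 and 259.5. Most of that sum on each array came from the Lyz2 probe, which also stands for Lyz, a Paneth cell marker. It read 7.76 and 8.31 in the controls and 8.04 and 7.63 in compost, so the sum says little about the other markers. Of 12 measured stem cell and crypt markers, 9 had a higher mean in compost and 3 a lower one. Their median difference was 0.11, and -8.51e-04 without control 1. Both compost arrays lay above both controls in 2 (16.7%, against 12.7% of all names) and below both in 0 (against 15.2%). The medians of the T cell, Paneth and goblet cell, smooth muscle and erythrocyte lists were 0.11, 0.20, 0.12 and 0.38. No gene of these lists passed the test, and the erythrocyte list held 3 measured genes. The part of cell composition in the ribosomal protein values was not tested, and in whole tissue fewer cells of a type and less RNA per cell cannot be told apart.

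The starts of the genes that the results turn on are printed because the pyrimidine run is the feature they are known to share. RefSeq promoters of the GRCr8 assembly were at hand for 59 of the 72 genes. Those of the other 13 were not used here. Each line gives 30 bases in the direction of transcription, of which 15 lie before the annotated start and 15 from it on, with the longest run of C or T in capitals.
Rpl3: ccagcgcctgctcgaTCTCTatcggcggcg
Rpl3l: gacctctggtgcctggtggggaggTCCCTT
Rpl35a: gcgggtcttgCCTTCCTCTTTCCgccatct
Rpl13: ctttgcggtgcccgaTCCTTTCCgctcggc
Rpl23: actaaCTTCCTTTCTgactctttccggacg
Rps12: gcacagaagCCCagcagagcgcttaaatac
Rps6: gacgCCTCCTaggcggtcggctgtgtcaag
These windows lie at chr7:113507976-113508005 on the minus strand for Rpl3 and at chr10:14258431-14258460 on the plus strand for Rpl3l. The Rpl35a window is chr11:81235007-81235036 on the minus strand, that of Rpl13 is chr19:68062499-68062528 on the plus strand, and that of Rpl23 is chr10:83272170-83272199 on the minus strand. The Rps12 window is chr1:23500060-23500089 on the plus strand and that of Rps6 is chr5:106420526-106420555 on the minus strand. In Rpl35a the run covered 13 bases and crossed the start, and in Rpl13 it covered 8 bases and began at the start. In Rpl3 it covered 5 bases from the start on, and in Rpl3l the longest run of 6 bases began at base 10 of the transcript.

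A run of at least 6 pyrimidines lay in this 30-base window in 47 of the 59 promoters (79.7%), compared with 28.3% of 27457 rat promoters in the same table. The median longest run was 10 bases for the ribosomal proteins and 4 over all. The letters CTTTCC, searched on the transcribed strand of the window, were present in 15 of the 59 (25.4%) and in 1.30% of all promoters. Among those printed they are in Rpl35a, Rpl13 and Rpl23, and in neither Rpl3 nor Rpl3l. Over the whole 300 bases (250 before the start and 50 from it on) and both strands, CCGGAAG, the core that ETS-family factors bind, was present in 18 of the 59 (30.5%) and in 9.22% of all promoters, and TATAAA in 5 (8.47%) against 14.3%. Annotated starts can be off by some bases, and a match of letters is a description of the sequence alone.

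None of the 108 probes passed the limma test at an adjusted p of 0.05, where 0% of all 24310 names did, and 1 of the 72 genes, Rpl3l, had an unadjusted p under 0.05. The mean was higher in compost for 27 genes and lower for 45, and with quantile scaling of the arrays the split turned to 42 higher and 30 lower. Without compost 1 it was 65 and 7, and without compost 2 it was 12 and 60, so the direction rested on which compost array was read. The median difference, compost minus control, was -0.018 on the log2 scale, the same to 3 decimals as the median over all names. The differences were small. In 56 of the 72 genes (77.8%) the size of the difference was under 0.1, compared with 35.3% of all names and 50.5% of the brightest 10% of names, to which 70 of the 72 genes belonged by their probe's intensity. Both compost arrays lay above both control arrays in 7 genes (9.72%), where 12.7% of all names did so. They lay below in 3 genes (4.17%), where 15.2% of all names did so. With quantile scaling 16 genes (22.2%) lay above, where 14.5% of all names did so, and 5 (6.94%) below, where 13.9% did so. The share above was thus under that of the array as a whole on the main scale and over it with quantile scaling.

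**Figure D1:**
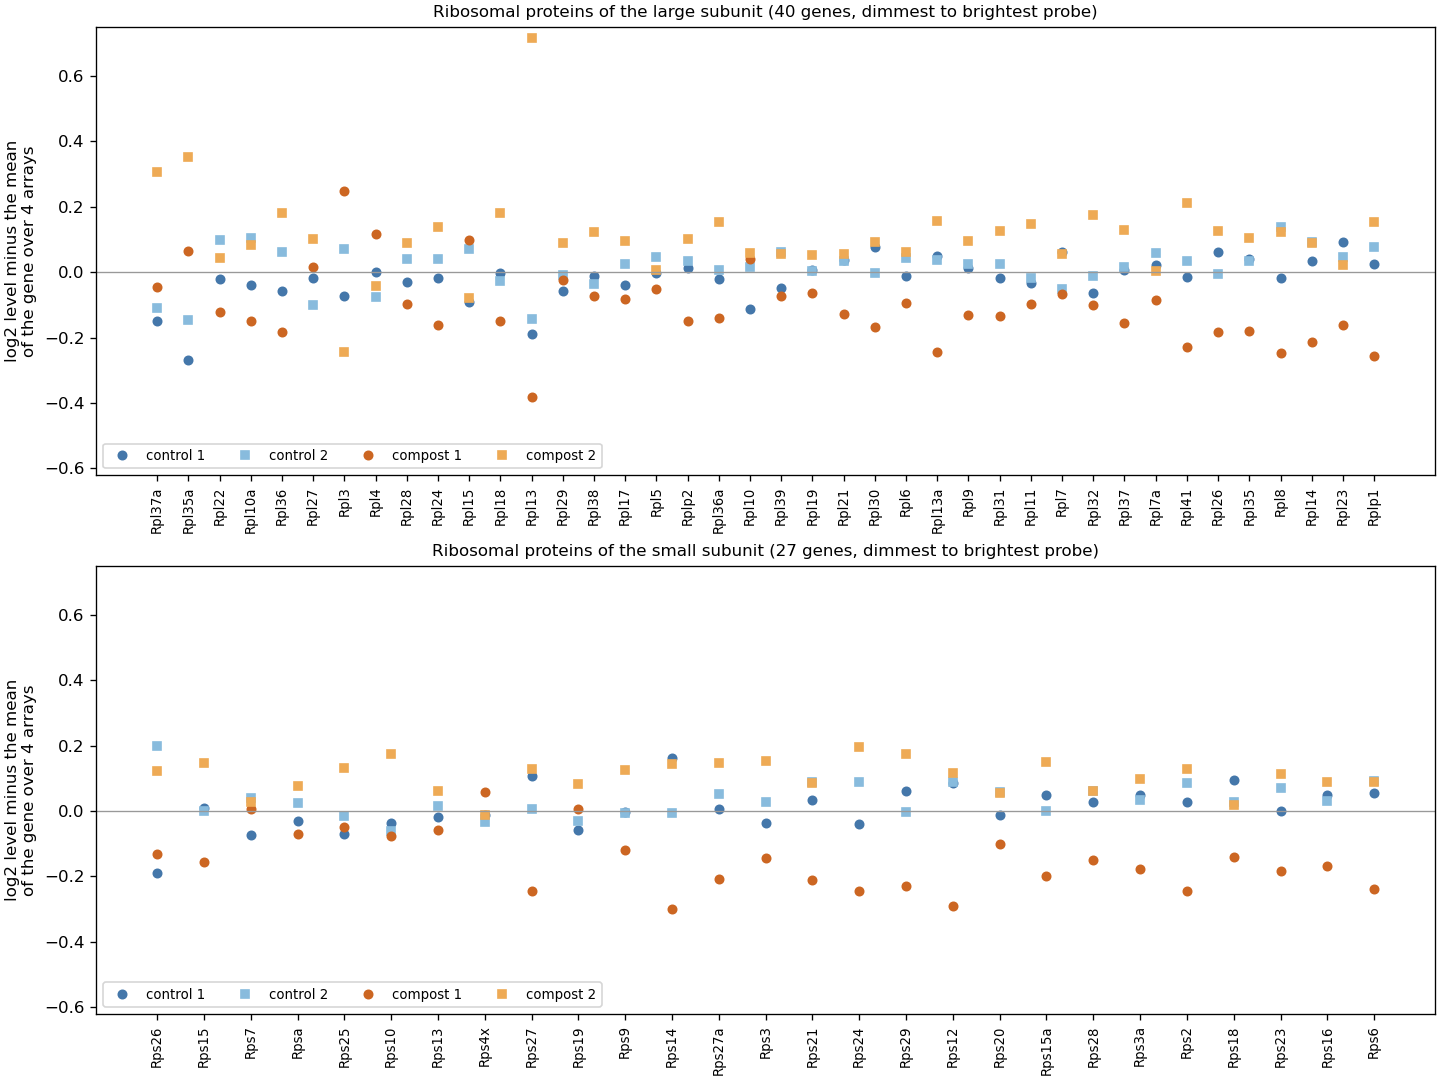
Level of each ribosomal protein gene on each array, as the log2 level minus the mean of that gene over the 4 arrays (vertical axis), for 40 genes of the large subunit without Rpl3l (top) and 27 of the 31 of the small subunit (bottom), ordered from the dimmest to the brightest probe. Control arrays are blue and compost arrays orange; compost 1 is the lowest array in most genes, and compost 2 of Rpl13 and compost 1 of Rpl3 stand apart from that pattern.

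In the large subunit 16 of 41 genes had a higher and 25 a lower mean in compost, with a median difference of -0.010. In the small subunit the numbers were 11 and 20 of 31, with a median of -0.046. With quantile scaling both medians were above 0, at 0.016 and 0.0085. Leaving Rpl3l aside, the standard error of a gene's difference was between 0.17 and 0.40 with a median of 0.19, and the smallest unadjusted p among these 71 genes was 0.0956 (limma).

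Rpl3l was the gene with the largest difference. Its probe read -2.71 and -2.35 in the control rats and -1.25 and -1.07 in the compost rats. Both compost rats were above both control rats, and the gap between the groups exceeded the gap within either. The means were -2.53 ± 0.25 (SD, n = 2) and -1.16 ± 0.12 (SD, n = 2). The difference was 1.37 ± 0.21 (SE), or 2.59-fold, with an unadjusted p of 0.00184 and an adjusted p of 0.867 by limma, so it did not pass. The processed intensities behind it were 118 and 149 against 417 and 347, on arrays where the dimmest spot called well above background had between 14.3 and 18.3. By unadjusted p Rpl3l ranked 51st among the 24310 names, and 158 names (0.65%) had an upward difference at least as large. Without any 1 of the 4 arrays the difference stayed between 1.19 and 1.55, and with normexp background correction it was 1.08.

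Rpl3, the paralog that sits beside the catalytic centre of the ribosome in most tissues, did not share this difference. It read 5.97 and 6.11 in the controls and 6.29 and 5.79 in the compost rats. The compost rats were the highest and the lowest of the 4, with both controls between them, and the difference between groups was 0.0026 ± 0.24 (SE). Within an array, Rpl3l minus Rpl3 was -8.67 and -8.46 in the controls and -7.53 and -6.87 in compost. The size of these values also reflects how strongly each probe binds, so only their change between arrays can be read. That change was 1.37, and the exact two-sided permutation test gave p = 0.333, which is the smallest p that 2 against 2 arrays allow. It was between 1.04 and 1.70 over all settings tried.

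**Figure D2:**
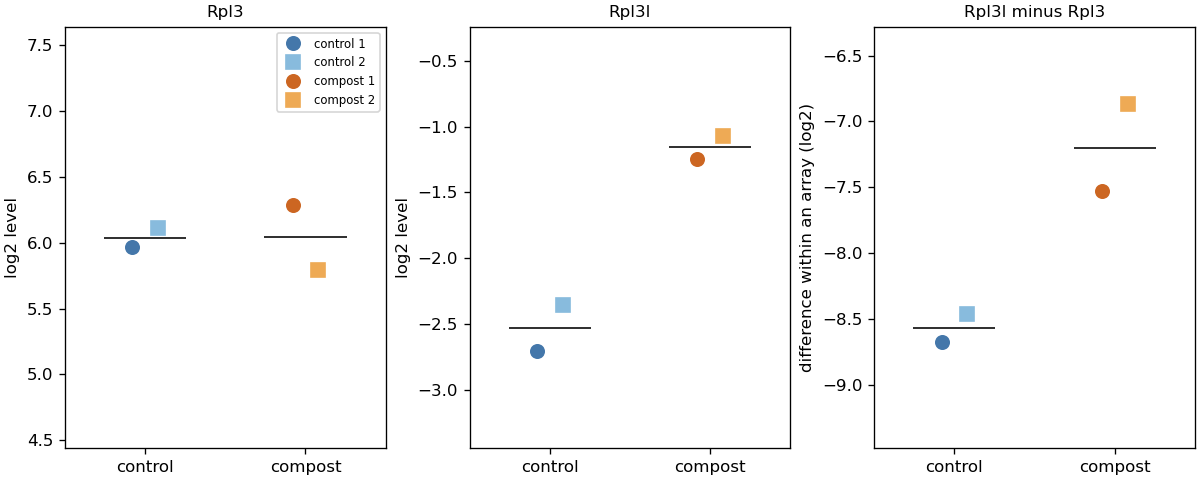
Log2 level of Rpl3 (left) and Rpl3l (middle), and Rpl3l minus Rpl3 within each array (right), with 1 point per array, a line at each group mean and axes of equal span. Rpl3l is higher in both compost arrays than in both controls (-1.25 and -1.07 against -2.71 and -2.35), while the compost arrays of Rpl3 lie on either side of the controls.

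Because Rpl3l is known from striated muscle, the markers of that tissue were read beside it. Of 22 such markers 14 were measured and 6 were not well above background on 2 arrays, among them Myh4, Ttn, Actn2 and Nppa, which code for a fast myosin, titin, alpha-actinin and the atrial hormone precursor. The summed level of the 14 was 3.12 and 3.31 in the controls and 3.23 and 3.39 in compost, so the groups overlapped. Of the 14, 8 had a higher and 6 a lower mean in compost, with a median difference of 0.09. Both compost arrays lay above both controls in 4 (28.6%, against 12.7% of all names) and below both in 2 (14.3%, against 15.2%). The smallest unadjusted p were those of Myh7 with 0.79 ± 0.21 (SE), Myh6 with 1.33 ± 0.49 and Ckm with 0.64 ± 0.29, which code for the slow and the atrial myosin heavy chain and for muscle creatine kinase. All had an adjusted p of 1.00 by limma. Myh7 read -4.81 and -4.48 in the controls and -3.75 and -3.97 in compost, and Ckm read -3.02 and -2.34 against -1.96 and -2.13. Myh6 read -4.95 and -3.56 against -2.84 and -3.02, and was well above background on 3 of the 4 arrays. Rpl3l and Myh7, Myh6 and Ckm were thus higher in the same 2 rats, while 6 of the 14 markers had a lower mean there. Most of the summed level on each array came from Acta1, Tnnt2, Mb, Tnni2 and Mylpf, so the sum says little about the dimmer markers. Acta1, the skeletal muscle actin, read -0.76, -0.46, -0.65 and -0.71. Atp2a1 and Mb, named after their values were seen, were lower in both compost rats. Atp2a1 read -3.63 and -3.74 in the controls against -4.11 and -3.97, and Mb -1.01 and -0.92 against -1.13 and -1.09. The part of the muscle markers in the Rpl3l difference was not tested.

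Among the other genes of the large subunit, Rpl35a and Rpl13 had the largest differences, and each rested on 1 of its 2 probes. For Rpl35a the brighter probe read 3.90 and 4.03 in the controls and 4.24 and 4.52 in compost, without overlap, with a difference of 0.42 ± 0.20 (SE; unadjusted p = 0.0956, adjusted p = 1.00 by limma). Without compost 2 it was 0.27. The other probe of the same gene read 3.29, 3.46, 3.37 and 3.53, with overlapping groups and a difference of 0.07. For Rpl13 the brighter probe read 6.43 and 6.48 in the controls, 6.24 in compost 1 and 7.34 in compost 2. The difference of 0.33 ± 0.40 (SE) came from compost 2: without that array it was -0.22, and the other probe gave -0.034. Rpl37a had a single dim probe that read -3.75 and -3.71 against -3.65 and -3.29, a difference of 0.26 ± 0.21 (SE), at processed intensities between 57.1 and 78.9. That difference was 0.085 without compost 2, 0.44 without compost 1 and 0.13 with normexp correction.

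The other genes named for the smallest p among those higher in compost differed by 0.12 or less. Rpl27 was alike on both of its probes: the brighter read 5.96 and 5.88 against 5.996 and 6.08, and both probes gave a difference of 0.12. Rps19, the small subunit protein in which inherited Diamond-Blackfan anaemia was first traced, read 6.67 and 6.70 against 6.74 and 6.81, with no overlap and a difference of 0.088 ± 0.17 (SE). Rpl10, which joins the large subunit late in its assembly, gave 0.099 on its brighter probe and 0.028 on the other. Rps10 gave 0.098 and 0.10 on its probes and Rpl4 gave 0.075. Rps25 gave 0.085 on the brighter probe and -0.14 on the dimmer one, so its probes had opposite signs. Of the genes whose arrays did not overlap, Rps4x, chosen after its values were seen, was the smallest, with 5.94 and 5.92 against 6.01 and 5.94 and a difference of 0.046.

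The genes named among those lower in compost were mostly of the small subunit, and their differences were between -0.17 and -0.12. Rps12 had the lowest value. Its brighter probe read 8.10 in both controls, 7.72 in compost 1 and 8.13 in compost 2, so compost 1 alone was low and the groups overlapped. The difference was -0.17 ± 0.22 (SE), and the other probe gave -0.078. Rps6, the small subunit protein that the S6 kinases phosphorylate, read 9.13 and 9.16 in the controls, 8.83 in compost 1 and 9.16 in compost 2, with a difference of -0.15 ± 0.20 (SE). Rps14, Rpl14, Rps21, Rpl8, Rps2 and Rps27 had the same shape, with compost 1 the lowest array and compost 2 within 0.10 of a control, and their differences were between -0.15 and -0.12. Rps2, a protein at the entry of the messenger RNA channel, did so on its 4 probes, with differences between -0.12 and -0.0092. Rpl23 and Rps18 were without overlap: Rpl23 read 8.96 and 8.92 against 8.71 and 8.89, and Rps18 8.74 and 8.67 against 8.51 and 8.67, where the nearest arrays agreed to 2 decimals. Rpl7a, the only other gene with both compost arrays below both controls, differed by -0.079 and was chosen after its values were seen.

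The stalk proteins Rplp1 and Rplp2, which recruit the translation factors to the large subunit, differed by -0.10 ± 0.22 and -0.049 ± 0.19 (SE). Rplp1 read 9.05 and 9.098 in the controls, 8.77 in compost 1 and 9.17 in compost 2. Its probe was spotted 10 times on each array, and the SD of those spots was between 0.07 and 0.09, which measures the spot-to-spot error within an array and not the spread between rats. With quantile scaling the difference of Rplp1 was 0.0024. Rpsa, a small subunit protein also known as the laminin receptor precursor, differed by 0.0055 on one probe and by less than 0.001 on the other.

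For 26 genes there were from 2 to 5 probes, and the differences of their probes spanned from 0.0037 (Rps20) to 0.37 (Rpl13) on the log2 scale. No gene had probes that differed by over 1. Rpl29 had 4 probes, all with a higher mean in compost, between 0.066 and 0.25. Rpl21 had 5 probes between -0.082 and 0.038. A dim second probe gave the lowest difference of all, -0.28 for Rpl28, at processed intensities of 27.6 and 36.6 against 39.3 and 21.5, while its bright probe gave -0.0092.

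**Figure D3:**
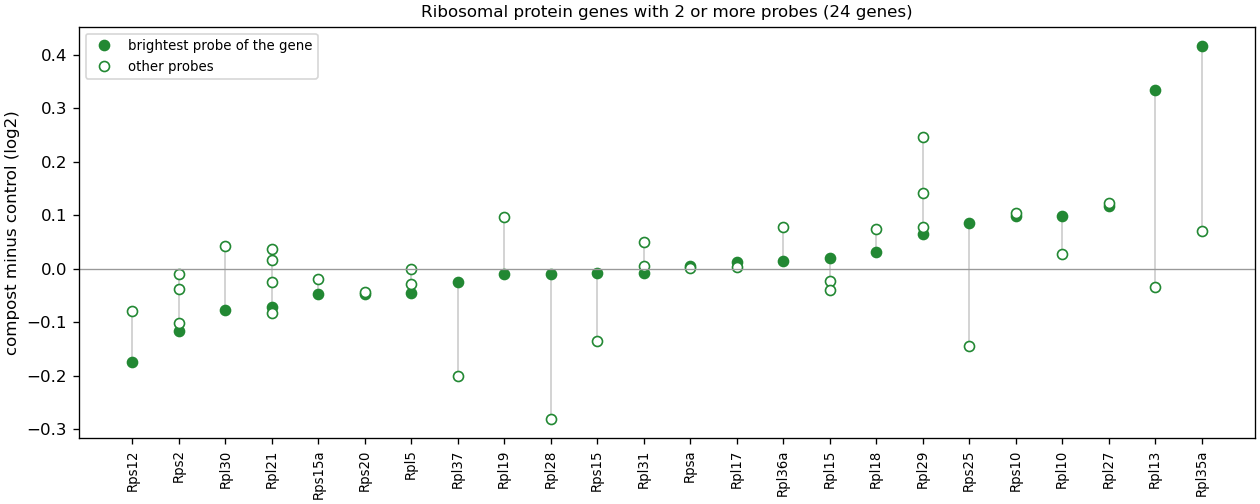
Compost minus control (log2) of each probe for 24 of the 26 ribosomal protein genes with 2 or more probes, with the brightest probe of a gene filled and the others open. Most probes of a gene lie within 0.2 of each other, and the brightest probes of Rpl13 and Rpl35a lie 0.37 and 0.35 above the other probe of the same gene.

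The larger variation in these genes was between the 2 compost rats and not between the groups. Compost 2 was above compost 1 in 68 of the 72 genes (94.4%), by a median of 0.25, on the scale of the 75th percentile, and in 36 with quantile scaling. Of all names 56.7% did so, and of the brightest 10% of names 78.3%. Compost 1 was the lowest of the 4 arrays in 58 genes and compost 2 the highest in 52. Over all 24310 names these counts were 9171 and 7658, and over the 2431 names of the brightest 10% they were 1257 and 1271. The control arrays were nearer to each other: control 2 was above control 1 in 47 genes (65.3%), by a median of 0.038. Over all names it was so in 55.1%, by a median of 0.032. The 4 genes that ran the other way in compost were Rpl3, Rpl15, Rpl4 and Rps4x, named here after their values were seen, with compost 2 below compost 1 by 0.49, 0.18, 0.16 and 0.068. Rpl15 read 6.37 and 6.53 in the controls, 6.56 in compost 1 and 6.38 in compost 2 on its brightest probe, while its dimmer probes did not fall from compost 1 to compost 2. 

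This pattern turned on how the arrays were scaled. With quantile scaling, which gives every array the same distribution of intensities, compost 2 exceeded compost 1 in those 36 of the 72 genes and by a median of 0.0051, whereas with normexp correction it was so in 67 and with scaling to the median of the other probes in 68. The 75th percentile intensity of compost 1 was 1.31 times the mean of the other 3 arrays. Before scaling, the processed intensity of the 72 genes on compost 1 was 1.16 times that of the other arrays at the median, and it was under the ratio of the 75th percentile in 62 genes. For the 24 genes with the brightest probes the median ratio was 1.11, with a range from 1.00 to 1.23, so all 24 lay under it, and for the 24 with the dimmest probes it was 1.24. Rps6 had 430201 and 436161 in the controls and 450665 and 417347 in compost, while Rpl10 had 109766 and 118533 against 156860 and 117032. How much of the difference between the compost rats is due to this was not tested.

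The brightness of a probe went with the sign of its difference between groups. Of the 24 genes with the brightest probes, 22 had a lower mean in compost, with a median difference of -0.077, and compost 1 was the lowest array in all 24. Of the 24 with the dimmest probes, 16 had a higher mean, with a median of 0.025. Over the 72 genes Spearman's rho between the mean level and the difference was -0.64, and over all names it was 0.13. This is a description of genes that share 4 arrays and not of independent replicates. With quantile scaling, 14 of the 24 brightest and 5 of the 24 dimmest had a lower mean in compost, and the median of the brightest was -0.014. Without compost 1, 3 of the 24 brightest had a lower mean, and without compost 2 all 24 did.

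**Figure D4:**
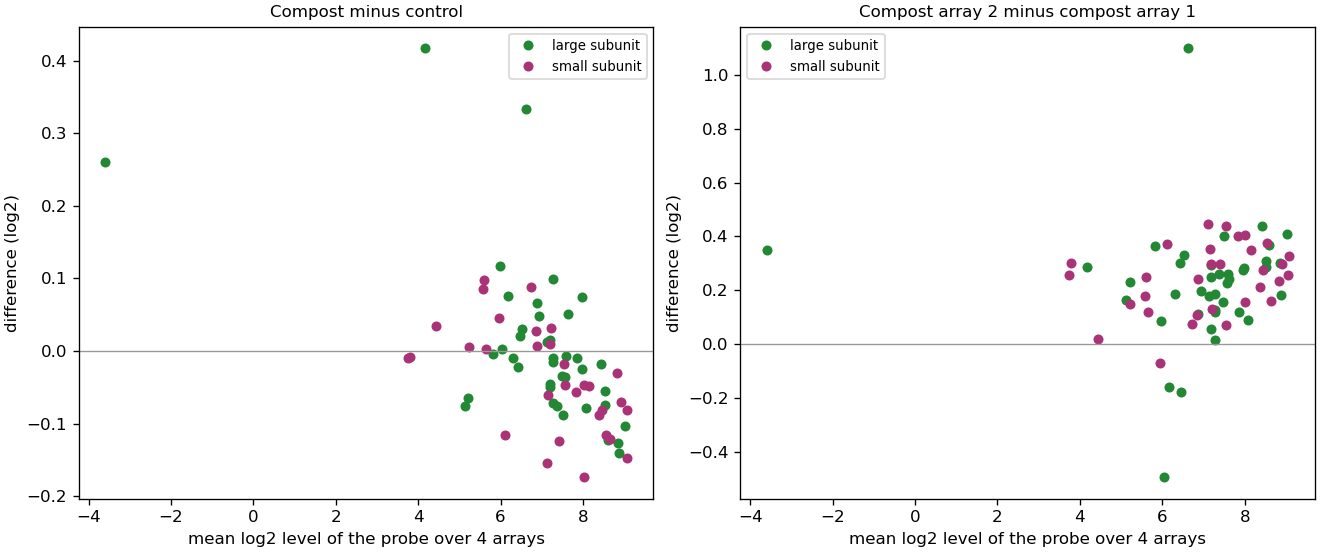
Compost minus control (left) and compost array 2 minus compost array 1 (right), both in log2 units, against the mean log2 level of the probe over the 4 arrays, for 71 ribosomal protein genes without Rpl3l, with large subunit genes in green and small subunit genes in purple. On the left most of the brightest probes lie below 0; on the right nearly all genes lie above 0, with Rpl3 lowest and Rpl13 highest.

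Probes of ribosomal protein genes that the array lists under other names had differences between -0.15 and 0.034. Fau, the small subunit protein made as a fusion with a ubiquitin-like domain, read 8.44 and 8.39 in the controls, 8.06 in compost 1 and 8.60 in compost 2, a difference of -0.087 ± 0.25 (SE). The dimmer Fau probe gave -0.15 ± 0.25 (SE). Rack1, the scaffold on the head of the small subunit, differed by 0.034 and the probe for the stalk protein Rplp0 by -0.024.

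None of the factors that build ribosomes passed the test. Of 54 ribosome biogenesis genes measured, 46 had a higher and 8 a lower mean in compost, with a median difference of 0.16 compared with -0.018 over all names. Both compost arrays lay above both controls in 24 of them (44.4%) and below in 2 (3.70%), where 12.7% and 15.2% of all names did so. Ebna1bp2, a factor of large subunit assembly, read 2.69 and 2.80 in the controls and 3.08 and 3.14 in compost, with a difference of 0.36 ± 0.18 (SE). Bysl and Pno1, which take part in making the small subunit, differed by 0.38 ± 0.19 and 0.39 ± 0.19 (SE), without overlap of the groups. The adjusted p of all 3 was 1.00 by limma. The number with a higher mean was 45 of 54 with normexp, quantile or median scaling, and was between 37 and 48 when any 1 array was left out. The median fell to 0.099 without control 1 and to 0.11 without compost 2, and was 0.21 when either of the other arrays was left out. The difference between this list and the ribosomal proteins was not tested.

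The list of translation factors and other genes named for a 5′ terminal pyrimidine tract was mixed. Whether each listed gene has such a tract was not checked. Of 34 measured, 22 had a higher and 12 a lower mean in compost, with a median of 0.045, and none passed the test. Both compost arrays lay above both controls in 10 (29.4%, against 12.7% of all names) and below both in 4 (11.8%, against 15.2%). Nap1l1, a histone chaperone, differed by 0.31 ± 0.20 (SE) and Eif2s1, a subunit of the factor that brings the initiator transfer RNA, by 0.24 ± 0.18. Eef2, the factor that moves the ribosome along the messenger, read 6.97 and 7.004 in the controls and 6.76 and 6.67 in compost, a difference of -0.27 ± 0.17 (SE). In compost it was lower in both rats, and compost 2 was the lowest, unlike in most ribosomal proteins. Without control 1 the list had 16 higher and 18 lower.

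The S6 kinases and the mTOR pathway, which acts on the pyrimidine tract, had 10 of 20 measured genes with a higher and 10 with a lower mean, and none passed. Rps6kl1, an S6 kinase-like gene of dim signal, read -5.47 and -5.40 against -4.56 and -4.80, a difference of 0.75 ± 0.19 (SE) with an unadjusted p of 0.0125. Mlst8, a subunit of both mTOR complexes, differed by 0.39 ± 0.20 and Deptor, an mTOR inhibitor, by -0.56 ± 0.30 (SE). All 3 had an adjusted p of 1.00 by limma.

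**Figure D5:**
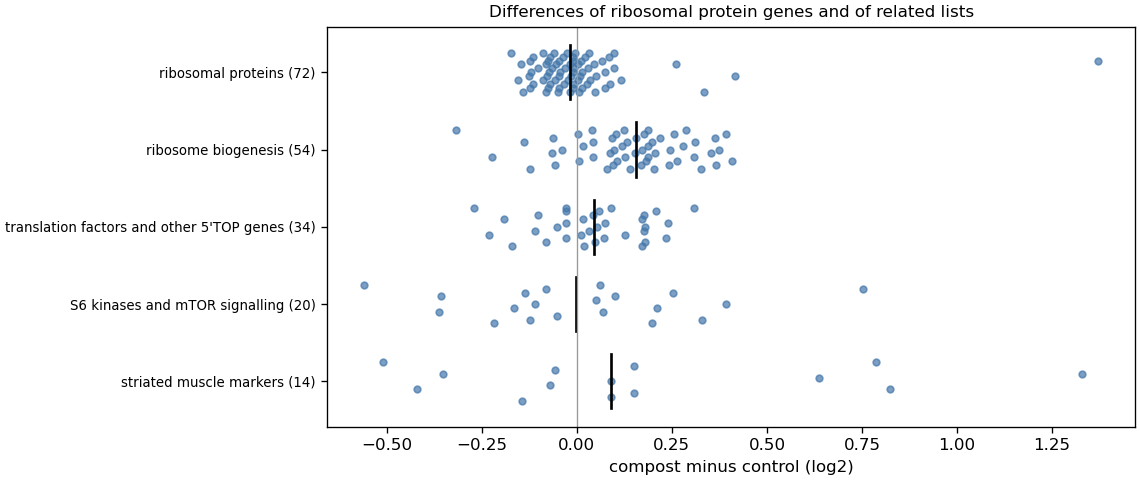
Compost minus control (log2) of each gene in the ribosomal proteins and in 4 related lists, with 1 point per gene, a black line at the median of a list and the number of genes measured in brackets. The ribosomal proteins lie close to 0 apart from Rpl3l at 1.37, and the ribosome biogenesis genes have their median at 0.16.

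These values share a limit. Ribosomal protein genes have many near-identical copies: the annotation used for names lists 883 pseudogenes and 306 protein-coding loci with a ribosomal protein symbol. A probe can bind transcripts of such copies, so the value of a gene may include them. For 3 probes, of Rpl36a and Rpl37, the accession on the array now belongs to the related loci Rpl36al1 and Rpl37l1.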

How the data were processed

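RNA from the small intestine of 4 rats was hybridised to one-colour Agilent rat arrays, per the labels. The deposited spot intensity was the processed signal of Agilent Feature Extraction 9.1.3.1, background-subtracted on a linear scale, per the file headers. The value table that the authors deposited repeats this intensity in rounded form, within 0.5% of it on every array, with column medians of 80.2, 79.4, 102 and 73.9; its scale, centring and direction were thus known. It was used as an alternative. Control and outlier spots were left out. Repeated spots were averaged as log2 intensity, and each array was set relative to its 75th percentile. Of 41012 probes, 28415 were kept, those with signal well above background on 2 or more arrays. Groups were compared with limma 3.58.1 in R 4.3.3 (lmFit, eBayes; two-sided; Benjamini-Hochberg over all probes kept; threshold 0.05), with standard errors from that fit. The procedure was run on simulated data with noise drawn for each probe on its own. That simulation did not cover a shift shared by the probes of an array, and no result here rests on it. The number of arrays limits the precision. The labels say that samples came from individual rats.

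A gene was its brightest probe. Symbols were read from the array after removing suffixes, and 93 of the 108 probes were matched to RefSeq by accession and 15 by symbol. The genes named are the 10 with the smallest p in each direction, Rpl3, Rpl3l, Rplp1, Rplp2, Rpsa and Rps6, and the 3 with the smallest p of each related list. Some genes are not reported here by name. The genes and lists were chosen with earlier results of these data known. Alternatives were normexp background correction (offset 50), quantile scaling, scaling to the median of other probes, other filters, a replicate block, a variance trend, the mean of a gene's probes, the deposited table, and leaving out each array.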

Additional observations from a re-analysis of the deposited data

How the results depend on the processing

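No ribosomal protein probe passed the limma test in any of the settings tried. The median difference over the 72 genes was -0.018 as reported, 0.014 with quantile scaling, and between -0.14 and 0.081 when any 1 array was left out. The number of genes with both compost arrays above both controls was 7, became 16 with quantile scaling and was between 8 and 53 when an array was left out. The number below was 3, became 5 with quantile scaling and 1 with scaling to the median of other probes, and was between 4 and 58 when an array was left out. Fewer arrays to separate make such counts larger. No share over all names is given for the counts with an array left out or with median scaling. Those counts therefore cannot be read as a result about the ribosomal proteins. The sign of Rpl13 and of Rpl3 turned when an array was left out, with ranges of -0.22 to 0.88 and -0.24 to 0.25. Of the 24 genes named, 7 kept their sign in all settings. Over all probes, 913 had an unadjusted p under 0.05 and none passed; 1 passed with normexp and 2 without control 2, none of them of a ribosomal protein.

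The groups share replicate numbers. With the replicate number as a block, 0 ribosomal protein probes were called and the median difference was -0.018. Deviations of same-numbered arrays had a correlation of -0.036 over all probes kept and -0.237 over the 108 ribosomal protein probes. With so few arrays per group, these correlations cannot decide whether same-numbered rats were paired. As far as the labels say, the arrays share only a number.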
